A study of Mus musculus with 6 samples.

Results

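The peroxisome proliferator-activated receptors (PPARs), the estrogen-related receptors (ERRs), the PGC-1 coactivators, the retinoid X receptor RXRA and nuclear respiratory factor NRF1 were followed in E9.5 mouse hearts with and without *Smyd1*. The rows were chosen by gene symbol, which gave 10 genes of 54532 in the raw count table, *Ppara*, *Ppard*, *Pparg*, *Rxra*, *Ppargc1a*, *Ppargc1b*, *Esrra*, *Esrrb*, *Esrrg* and *Nrf1*. The data are bulk poly A RNA-seq of 6 dissected hearts, each from a single embryo. A total of 3 hearts were *Smyd1-KO*, which are conventional nulls from a *Smyd1*+/- line, so the allele is disrupted in every tissue and not only in cardiomyocytes, and 3 were WT. No hearts received a treatment, and the labels do not say which embryos were littermates or whether they were handled together. *Smyd1* encodes a histone methyltransferase of striated muscle, and the comparison asks which genes change when it is lost. In such data, fewer cells of a type and less RNA per cell cannot be told apart.

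These regulators form 1 network. PPARs are nuclear receptors that bind fatty acids and their derivatives and sit on DNA as a dimer with an RXR, where they turn on genes of fatty acid uptake and oxidation. ERRs have no known natural estrogen ligand and drive genes of the citric acid cycle and of oxidative phosphorylation, and NRF1 drives nuclear genes for respiratory chain subunits and for the upkeep of mitochondrial DNA. PGC-1α and PGC-1β, the products of *Ppargc1a* and *Ppargc1b*, do not bind DNA themselves and activate transcription by docking on these factors. In the maturing heart the network accompanies the change from glucose to fatty acids as the main fuel, which takes place long after the stage studied here.

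The sequence before a start site shows which of the family's own binding letters lie close to each gene. Promoter windows of RefSeq on GRCm38.p6, the build of the counts, were found for 9 of the 10 genes, all except *Ppargc1b*, with 17 start sites in total. The 250 bases before each start were searched on both strands for 7 sets of letters, the NRF1 core GCATGCG, the ERR half-site AAGGTCA, a PPAR direct repeat made of AGGTCA repeated with 1 base between, the MEF2 letters CTA and TAG with 4 bases between, the cAMP response letters TGACGT, and ACGTG and GCGTG, the cores of hypoxia response elements. The ERR half-site contains the letters of the PPAR repeat unit, and ACGTG and TGACGT can overlap. Windows are shown for *Ppard*, which passed the test, for *Ppara*, its lowly expressed relative, and for *Esrra* and *Ppargc1a*, which were low in the hearts with few cardiomyocyte markers. Sequences run 5′ to 3′ on the strand of the gene and end at the base before the start, and capitals mark every match.
*Ppard* (17:28232504-28232753, plus strand): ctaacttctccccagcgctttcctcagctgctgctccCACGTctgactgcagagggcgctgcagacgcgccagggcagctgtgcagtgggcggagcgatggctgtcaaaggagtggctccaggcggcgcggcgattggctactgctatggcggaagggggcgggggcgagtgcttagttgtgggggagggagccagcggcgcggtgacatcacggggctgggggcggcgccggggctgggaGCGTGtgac
*Ppara* (15:85735526-85735775, plus strand): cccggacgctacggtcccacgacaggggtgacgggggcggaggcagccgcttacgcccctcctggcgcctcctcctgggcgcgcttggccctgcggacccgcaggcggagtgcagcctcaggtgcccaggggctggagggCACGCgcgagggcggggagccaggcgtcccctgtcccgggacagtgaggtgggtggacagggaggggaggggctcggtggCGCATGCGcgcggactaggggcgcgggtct
*Esrra* (19:6921809-6922058, minus strand): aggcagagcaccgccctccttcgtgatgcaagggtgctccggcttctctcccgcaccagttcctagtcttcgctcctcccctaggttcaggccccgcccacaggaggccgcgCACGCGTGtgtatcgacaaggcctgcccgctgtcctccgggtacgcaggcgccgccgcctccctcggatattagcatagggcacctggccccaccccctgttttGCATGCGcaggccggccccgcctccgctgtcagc
*Ppargc1a* (5:51567726-51567975, minus strand): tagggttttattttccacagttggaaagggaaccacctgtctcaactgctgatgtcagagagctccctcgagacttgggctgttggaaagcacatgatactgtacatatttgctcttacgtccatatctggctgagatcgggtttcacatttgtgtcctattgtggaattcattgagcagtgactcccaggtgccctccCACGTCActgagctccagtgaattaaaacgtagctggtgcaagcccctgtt

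The window of *Ppard* held ACGTG on the opposite strand at -213 to -209 and GCGTG at -9 to -5, counted from the start site. GCGTG lay before 7 of the 17 starts and before 28.2% of the 32851 starts in the table, and ACGTG before 2 of the 17 and 16.6% of all, so these short cores are common. The NRF1 core was found before *Ppara*, where its letters are present on both strands between -30 and -23, before *Esrra* at -34 to -28 and before 1 of the 4 *Esrrg* starts, which makes 3 of 17 against 3.02% of all starts. *Ppargc1a* held the cAMP response letters at -50 to -45, which occur before 6.47% of starts, and these share their bases with a match to ACGTG. Of the remaining sets, 1 start of *Esrrg* held the MEF2 letters (3.2% of all starts), 1 start of *Rxra* held the ERR half-site (4.08%) and 0 starts held the PPAR repeat (0.0335%). The *Esrrg* starts with the NRF1 core and with the MEF2 letters are less certain. The bases just after them were not found in a GENCODE transcript of the gene. A match is a description of the letters and was not tested as a binding site.

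The hearts were sequenced to between 48627825 and 64217529 counts. *Smyd1* itself was present in the *Smyd1-KO* libraries, at 101, 222 and 206 CPM (counts per 1000000 of the library, with TMM factors) in hearts 1 to 3 against 414, 379 and 270 CPM in WT hearts 1 to 3. These ranges did not overlap, and the log2 fold change of -1.01 ± 0.300 (SE) missed the threshold (adjusted *P*=0.0973 by edgeR's quasi-likelihood test). It passed in DESeq2 (log2 fold change -1.0, adjusted *P*=0.00534). All 14 cardiomyocyte markers passed the filter on low counts, with a summed level of 7376 to 15818 CPM in *Smyd1-KO* and 10445 to 16359 CPM in WT hearts. *Smyd1-KO* heart 1 stood apart, with a marker sum that was 46.8% of the mean of the other *Smyd1-KO* hearts, and WT heart 3 had 64.2% of the mean of the other WT hearts. *Smyd1-KO* heart 1 and WT heart 1 were also the only libraries with low *Xist* (2.76 and 2.80 CPM, against at least 766 CPM in the others). The Y-linked genes *Kdm5d*, *Eif2s3y*, *Uty* and *Ddx3y* were expressed in these libraries (*Ddx3y* at 12.4 and 44.5 CPM). In the others they lay at 0.0630 CPM or less, so *Smyd1-KO* heart 1 and WT heart 1 read as male. Leaving out *Smyd1-KO* heart 1 therefore also removes the only male *Smyd1-KO* heart. Among markers of other cells, the epicardial sum (8 genes) was 288 to 493 CPM in *Smyd1-KO* and 179 to 220 CPM in WT, the foregut epithelial sum (8 genes) 836 to 1195 and 594 to 659 CPM, and the erythroid sum (10 genes) 38.4 to 279 and 721 to 976 CPM. The endothelial, myeloid, smooth muscle and liver sums overlapped between genotypes, and no list had a marker at 0 in every heart. Taken singly, 2 of the 8 epicardial, 2 of the 8 foregut and 9 of the 10 erythroid markers had no overlap between genotypes. Of all tested genes, 31.3% had none.

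Of the 10 regulators, all passed the filter on low counts and 1 was upregulated in *Smyd1-KO* hearts, *Ppard*, while 0 were downregulated. A gene was called when its adjusted *P* was under 0.05 and its log2 fold change was 0.5 or more in either direction, which 4.28% of the 19372 tested genes reached, 2.86% as higher and 1.42% as lower. At an unadjusted *P* under 0.05, 3 of the 10 (*Ppara*, *Ppard* and *Ppargc1b*) were higher and 0 were lower, against 13.1% and 11.9% of all tested genes. The same 3 genes were higher in every *Smyd1-KO* heart than in any WT heart, as were 15.9% of tested genes. DESeq2 called 2 of the 10, *Ppard* and *Ppargc1b*, with 5.98% of its genes called higher, and edgeR without *Smyd1-KO* heart 1 called 2, *Ppara* and *Ppard*, with 4.04% of genes called higher. Log2 fold changes ran from -0.39 to 1.06 with a median of 0.077, and 5 were positive and 5 negative, while the median of all tested genes was -0.0026.

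**Figure D1:**
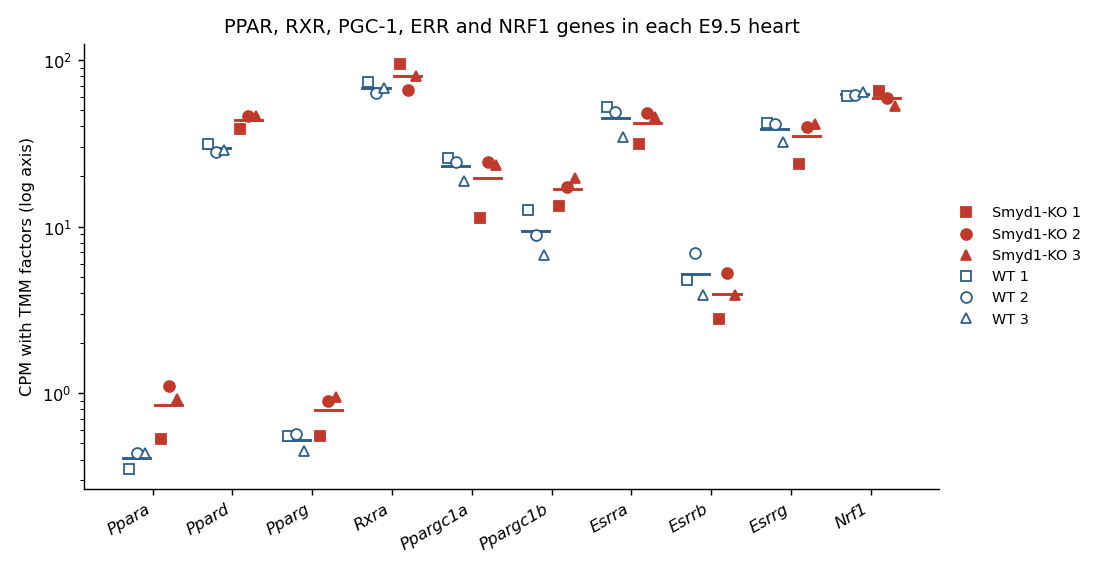
CPM with TMM factors of the 10 regulators (log axis) in each WT (open, blue) and *Smyd1-KO* (filled, red) heart, with bars at the genotype means. *Ppara*, *Ppard* and *Ppargc1b* are the 3 genes whose *Smyd1-KO* hearts all lie above the WT hearts, and *Smyd1-KO* heart 1 (square) is the lowest *Smyd1-KO* heart for 8 of the 10 genes, all except *Rxra* and *Nrf1*.

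PPARδ, encoded by *Ppard*, is the most widely expressed of the PPARs, and in cardiomyocytes it drives fatty acid oxidation. *Ppard* measured 38.8, 45.9 and 46.2 CPM in *Smyd1-KO* hearts 1 to 3 and 31.5, 27.9 and 28.9 CPM in WT hearts 1 to 3. Every *Smyd1-KO* heart was above every WT heart, and the lowest, heart 1, was the one with few cardiomyocyte markers. The log2 fold change was 0.57 ± 0.102 (SE), which is 1.48-fold (adjusted *P*=0.0274 by edgeR). DESeq2 gave the same size (0.57, adjusted *P*=0.000472). The size was stable when each heart was left out in turn, with log2 fold changes of 0.53 to 0.65, but with fewer hearts the call was kept in 1 of the 6 fits, the one without *Smyd1-KO* heart 1 (0.65, adjusted *P*=0.0124 by edgeR), and adjusted *P* was 0.0507 to 0.134 without any other heart. *Ppard* lies on chromosome 17 (28232700-28301474, plus strand, GRCm38), and no other annotated gene shares its exons. The epicardial and foregut epithelial marker sums were likewise higher in all *Smyd1-KO* hearts, although most single markers of both lists overlapped between genotypes. Of these markers, 1 epicardial and 0 foregut genes were called higher. The part of these cells in the *Ppard* result was not tested.

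PPARα, encoded by *Ppara*, is the main PPAR of the adult heart and liver, where it controls fatty acid oxidation. At E9.5 it was barely transcribed, with 26, 65 and 53 reads in *Smyd1-KO* hearts 1 to 3 and 21, 28 and 29 reads in WT hearts 1 to 3, or 0.535, 1.10 and 0.928 against 0.352, 0.441 and 0.435 CPM. The genotypes did not overlap, but *Smyd1-KO* heart 1 lay nearer to the WT hearts than to the other *Smyd1-KO* hearts. The log2 fold change of 1.06 ± 0.328 (SE) missed the threshold (adjusted *P*=0.106 by edgeR), and DESeq2 missed it as well (adjusted *P*=0.0806). Without *Smyd1-KO* heart 1 *Ppara* passed, at 1.30 (adjusted *P*=0.0395 by edgeR). PPARγ, encoded by *Pparg*, is the regulator of fat cell formation, and it was as scarce, with 27, 53 and 54 reads (0.555, 0.896 and 0.946 CPM) in *Smyd1-KO* and 33, 36 and 30 reads (0.554, 0.567 and 0.450 CPM) in WT hearts. Its genotypes overlapped because *Smyd1-KO* heart 1 lay within the WT range, and the log2 fold change was 0.61 ± 0.291 (SE, adjusted *P*=0.241 by edgeR).

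The PPAR transcripts of these hearts were almost entirely *Ppard*. Per kilobase of exon, which allows genes to be compared, *Ppard* made up 93.2 ± 0.743% (SD, n=3) of the summed PPAR level in WT and 92.3 ± 1.53% in *Smyd1-KO* hearts, *Pparg* 4.22 ± 0.533% and 4.24 ± 0.718%, and *Ppara* 2.56 ± 0.438% and 3.48 ± 0.877%. The division among the PPARs was thus similar in both genotypes, while the summed level was 4.20 ± 0.237 CPM per kilobase in WT and 6.30 ± 0.703 in *Smyd1-KO*. The log2 ratio of *Ppard* to *Ppara* differed by -0.44 between genotypes (exact two-sided permutation *P*=0.3, adjusted *P*=0.5 over 5 ratios) and that of *Ppard* to *Pparg* by -0.014 (exact permutation *P*=0.9, adjusted *P*=0.9), with overlapping hearts in both. With 3 hearts per genotype the smallest exact *P* is 0.1.

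RXRA is the shared partner of the PPARs and of many other receptors, and hearts without it fail to thicken their wall. *Rxra* had the highest level per length of the 10 genes, and measured 94.3, 65.8 and 79.8 CPM in *Smyd1-KO* hearts 1 to 3 and 73.5, 63.6 and 67.6 CPM in WT hearts. The genotypes overlapped, and *Smyd1-KO* heart 1, which was low for cardiomyocyte markers, was the highest of all hearts. The log2 fold change was 0.23 ± 0.135 (SE, adjusted *P*=0.335 by edgeR), and 0.095 without that heart. Its relative *Rxrb*, named after its values were seen, measured 98.2, 91.0 and 92.7 CPM in *Smyd1-KO* and 72.9, 74.6 and 73.1 CPM in WT hearts, and its log2 fold change of 0.35 ± 0.0676 (SE) had an adjusted *P* of 0.0322 by edgeR but lay below the limit on the fold.

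PGC-1α and PGC-1β share most of their partners, and PGC-1α is the form known for its response to energy demand. *Ppargc1b* measured 13.3, 17.2 and 19.6 CPM in *Smyd1-KO* hearts 1 to 3 and 12.6, 8.90 and 6.74 CPM in WT hearts 1 to 3. All *Smyd1-KO* hearts were above all WT hearts, though the gap between *Smyd1-KO* heart 1 and WT heart 1 was small. The log2 fold change of 0.83 ± 0.252 (SE), or 1.78-fold, missed the threshold in edgeR (adjusted *P*=0.101) and passed it in DESeq2 (0.83, adjusted *P*=0.0116). None of the 6 edgeR fits without 1 heart called it, with log2 fold changes of 0.64 to 1.10 and adjusted *P* from 0.0634 to 0.280.

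*Ppargc1a* measured 11.2, 24.4 and 23.4 CPM in *Smyd1-KO* hearts 1 to 3 and 25.8, 24.4 and 18.8 CPM in WT hearts 1 to 3. *Smyd1-KO* heart 1 was far below the others, and hearts 2 and 3 lay within the WT range. The log2 fold change was -0.22 ± 0.288 (SE, adjusted *P*=0.670 by edgeR) and turned to 0.057 without *Smyd1-KO* heart 1.

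**Figure D2:**
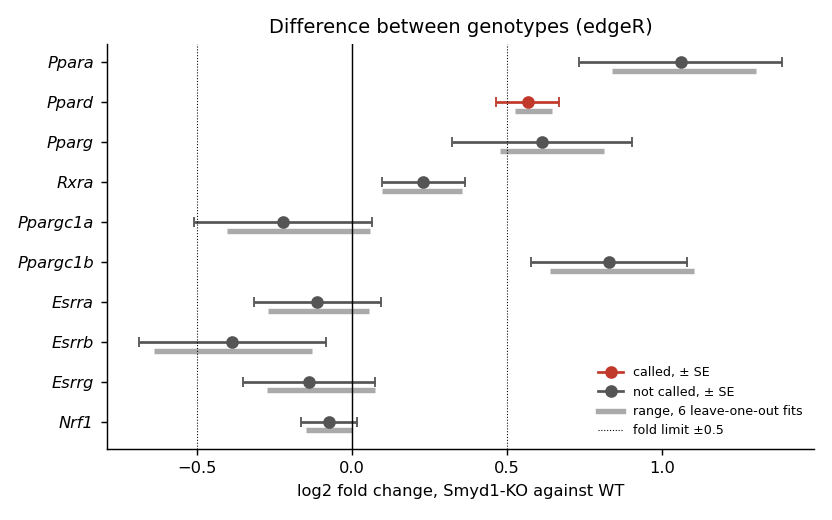
Log2 fold change of each regulator between *Smyd1-KO* and WT hearts (points, with SE), with the range over the 6 fits that leave out 1 heart (grey bars) and the limit on the fold (dotted). *Ppard* (red) is the gene that was called, *Ppara* has the highest value and a wide error, and the bars of *Ppargc1a*, *Esrra* and *Esrrg* reach across 0.

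Per kilobase of exon, *Ppargc1b* stood at 1.96, 1.17 and 1.38 times *Ppargc1a* in *Smyd1-KO* hearts 1 to 3 and at 0.809, 0.603 and 0.592 times in WT hearts 1 to 3. By this measure *Ppargc1a* was the more abundant form in all WT hearts and *Ppargc1b* in all *Smyd1-KO* hearts. The mean log2 ratio differed by 1.15 between genotypes, 0.55 ± 0.383 (SD, n=3) against -0.60 ± 0.253, with the smallest exact permutation *P* the design allows, 0.1 (adjusted *P*=0.5 over the 5 ratios), so it could not pass 0.05. The highest ratio came from *Smyd1-KO* heart 1, and the difference was 0.94 without it. As a share of the summed PGC-1 level, *Ppargc1b* was 39.8 ± 4.24% (SD, n=3) in WT hearts and 59.4 ± 6.32% in *Smyd1-KO* hearts. This ratio is taken within each library and so does not depend on library scaling. Which form leads does depend on the division by length. In CPM *Ppargc1a* lay above *Ppargc1b* in *Smyd1-KO* heart 2 (24.4 against 17.2) and heart 3 (23.4 against 19.6). The difference in log2 ratio between genotypes does not depend on the lengths.

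**Figure D3:**
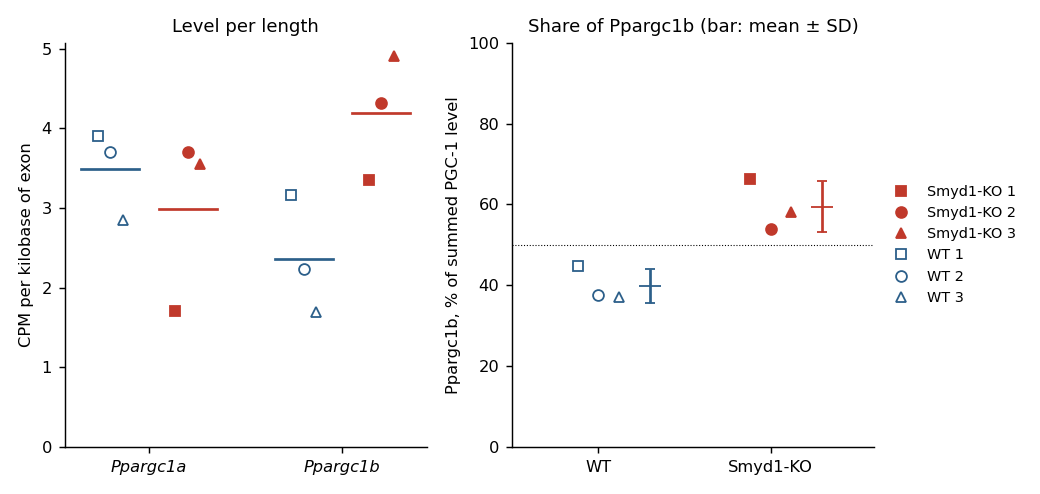
Left, CPM per kilobase of exon of *Ppargc1a* and *Ppargc1b* in each heart, with bars at the genotype means. Right, *Ppargc1b* as a percentage of the summed level of both genes, with mean ± SD of 3 hearts, where the WT hearts lie at 37.2 to 44.7% and the *Smyd1-KO* hearts at 53.8 to 66.3%.

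ERRα and ERRγ are the ERRs of oxidative muscle, and hearts lacking ERRγ do not complete the change to oxidative metabolism at birth. *Esrra* measured 31.4, 48.0 and 45.6 CPM in *Smyd1-KO* hearts 1 to 3 and 52.0, 48.8 and 34.5 CPM in WT hearts 1 to 3. *Esrrg* measured 23.9, 39.5 and 41.3 CPM in *Smyd1-KO* and 41.9, 41.1 and 32.4 CPM in WT hearts. In both genes *Smyd1-KO* heart 1 was the lowest of all hearts and WT heart 3 the lowest of the WT hearts, and the genotypes overlapped. Log2 fold changes were -0.11 ± 0.205 (SE) for *Esrra* and -0.14 ± 0.213 for *Esrrg* (adjusted *P*=0.771 and 0.728 by edgeR), and without *Smyd1-KO* heart 1 they were 0.055 and 0.073. *Esrra* shares 73 exonic bases (1.66% of its exon length) with *Trmt112* on the opposite strand and 91 with the microRNA gene *Mir6990*, and the strand setting of the counting is not given in the sources used here.

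ERRβ, encoded by *Esrrb*, is known from pluripotent cells and the placenta. *Esrrb* measured 2.78, 5.24 and 3.87 CPM in *Smyd1-KO* hearts 1 to 3 and 4.77, 6.90 and 3.90 CPM in WT hearts. The genotypes overlapped, with a log2 fold change of -0.39 ± 0.302 (SE, adjusted *P*=0.467 by edgeR). Within the family, *Esrra* made up 59.1 ± 1.94% (SD, n=3) of the summed level per length in WT and 60.5 ± 1.86% in *Smyd1-KO* hearts, *Esrrg* 35.9 ± 1.79% and 35.4 ± 2.07%, and *Esrrb* 4.94 ± 1.01% and 4.13 ± 0.586%. The composition of the ERRs therefore stayed within the spread between hearts even where their amount varied. The log2 ratio of *Esrra* to *Esrrg* differed by 0.056 (exact permutation *P*=0.6, adjusted *P*=0.75) and that of *Esrra* to *Esrrb* by 0.28 (exact permutation *P*=0.2, adjusted *P*=0.5).

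*Smyd1-KO* heart 1 and WT heart 3, which had few cardiomyocyte markers, were also low for several regulators. In *Smyd1-KO* heart 1, *Ppargc1a* stood at 47.0% of the mean of the other *Smyd1-KO* hearts, *Esrrg* at 59.1%, *Esrrb* at 60.9% and *Esrra* at 67.1%, and *Pparg* and *Ppargc1b* at 60.3% and 72.5%, beside 46.8% for the summed cardiomyocyte markers and 47.4% for *Smyd1*. WT heart 3 was low for the same genes, with 75.0% for *Ppargc1a*, 78.1% for *Esrrg*, 66.9% for *Esrrb*, 68.4% for *Esrra*, 80.4% for *Pparg*, 62.7% for *Ppargc1b* and 64.2% for the markers. For *Pparg* this is 30 reads against 33 and 36. The other WT hearts were uneven for *Ppargc1b*, with WT heart 1 at 161%, and for *Esrrb*, with WT heart 2 at 159%. *Nrf1* and *Rxra* were not low in these hearts, at 116% and 129% in *Smyd1-KO* heart 1 and 105% and 98.6% in WT heart 3. *Ppara* was low in *Smyd1-KO* heart 1 (52.7%) but not in WT heart 3 (110%), and *Ppard* stood at 84.2% and 97.3%. Expressed per 1000 CPM of the summed markers, a scaling chosen after the data were seen, *Ppargc1a* was 1.52, 1.55 and 1.48 in *Smyd1-KO* hearts 1 to 3 and 1.59, 1.49 and 1.80 in WT hearts 1 to 3. On the same scale *Esrra* and *Esrrg* also overlapped between genotypes, while *Ppargc1b* was 1.81, 1.09 and 1.24 in *Smyd1-KO* against 0.780, 0.544 and 0.645 in WT hearts, with no overlap. *Ppard*, *Ppara* and *Pparg* were likewise higher in all *Smyd1-KO* hearts per marker level, though *Pparg* overlapped in CPM. Dividing by the low marker sum of *Smyd1-KO* heart 1 raises genes that do not follow the markers. *Rxra* (12.8) and *Nrf1* (8.80) were highest in that heart on this scale and overlapped between genotypes. The share of all tested genes without overlap on this scale was not taken. These are descriptions over 6 hearts, in which each gene and the markers come from the same library, and no test was made.

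**Figure D4:**
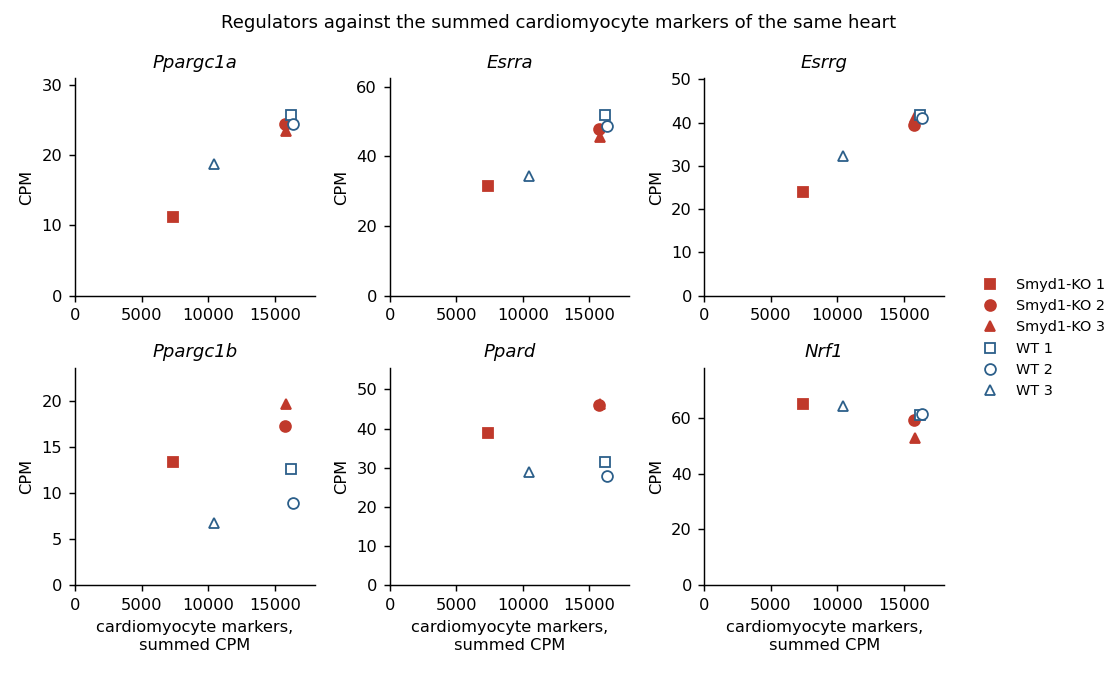
CPM of 6 regulators (vertical axes) against the summed CPM of 14 cardiomyocyte markers in the same heart (horizontal axes). For *Ppargc1a*, *Esrra* and *Esrrg* the hearts of both genotypes lie along 1 path from *Smyd1-KO* heart 1 through WT heart 3 to the other hearts, for *Ppard* and *Ppargc1b* the *Smyd1-KO* hearts lie above the WT hearts, and *Nrf1* stays between 52.9 and 64.9 CPM.

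NRF1 is needed for mitochondrial DNA upkeep, and embryos without it die early. *Nrf1* varied little among hearts, with 64.9, 59.1 and 52.9 CPM in *Smyd1-KO* hearts 1 to 3 and 60.9, 61.4 and 64.2 CPM in WT hearts. The genotypes overlapped, and the log2 fold change was -0.076 ± 0.0907 (SE, adjusted *P*=0.645 by edgeR).

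In WT hearts the levels per kilobase of exon ran from 0.107 to 12.5 CPM per kilobase. The order was *Rxra* (12.5 ± 0.916 CPM per kilobase, SD, n=3), *Esrra* (10.3 ± 2.13), *Esrrg* (6.19 ± 0.848), *Nrf1* (6.05 ± 0.174), *Ppard* (3.92 ± 0.246), *Ppargc1a* (3.49 ± 0.559), *Ppargc1b* (2.36 ± 0.746), *Esrrb* (0.858 ± 0.255), *Pparg* (0.177 ± 0.0216) and *Ppara* (0.107 ± 0.0129). Hearts of neighbours overlapped for *Rxra* and *Esrra*, for *Esrrg* and *Nrf1*, and for the run from *Ppard* through *Ppargc1a* to *Ppargc1b*, so these ranges do not set their places, although within each WT heart *Ppargc1a* was above *Ppargc1b*. In *Smyd1-KO* hearts *Ppard* stood in place 3 by its mean, at 5.81 ± 0.560, ahead of *Nrf1* (5.74 ± 0.581) and *Esrrg* (5.62 ± 1.54), and *Ppargc1b* (4.19 ± 0.791) stood ahead of *Ppargc1a* (2.98 ± 1.11). The hearts of *Ppard*, *Nrf1* and *Esrrg* overlapped, as did those of *Ppargc1b* and *Ppargc1a*, so these ranges do not set their places either. Within each *Smyd1-KO* heart *Ppargc1b* was above *Ppargc1a*. Dividing by the longest transcript in place of all exons moved *Esrra* and *Nrf1* ahead of *Rxra* in WT hearts and *Ppard* ahead of *Esrrg*, and left the places from *Ppargc1a* downward as they were.

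By the pattern over the 6 hearts, the genes most like *Ppard* among 13049 compared were *Slc19a2*, a thiamine transporter, *Lonp1*, a protease of the mitochondrial matrix, and *Eid2*, an inhibitor of differentiation. Their log2 CPM, centred on its own mean, differed from that of *Ppard* by a root mean square of 0.0303, 0.0463 and 0.0512. Their log2 fold changes were 0.57, 0.55 and 0.49, which the choice by likeness to *Ppard* largely fixes, so no test is given.

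The partners, coregulators and targets of these factors, taken from lists of known genes, were read against the shares of all genes. Of 22 partners and coregulators tested, 1 was upregulated and 0 downregulated, beside 2.86% and 1.42% of all genes, and the median of their log2 fold changes was -0.037. The upregulated gene was *Lpin1*, a phosphatidate phosphatase that coactivates PPARα with PGC-1α, at 12.5, 14.4 and 15.9 CPM in *Smyd1-KO* against 8.49, 9.55 and 8.99 CPM in WT hearts (log2 fold change 0.66 ± 0.138 (SE), adjusted *P*=0.0412 by edgeR). The most abundant partners per length were *Pprc1*, a further PGC-1 relative, at -0.34, the histone acetyltransferase gene *Kat2a* at -0.12 and *Yy1*, a zinc finger factor that works with PGC-1α, at 0.0018, and none was called. Without *Smyd1-KO* heart 1 *Pprc1* was called lower (-0.51, adjusted *P*=0.0254 by edgeR) and the counts became 2 higher and 1 lower, beside 4.04% and 2.23% of all genes in that fit.

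Of the 34 known PPAR target genes, 30 passed the filter, of which 2 were upregulated and 2 downregulated, beside the 4.28% called over all genes. *Vldlr*, the receptor that takes up triglyceride-rich lipoproteins, measured 91.3, 128 and 143 CPM in *Smyd1-KO* and 20.2, 21.0 and 21.6 CPM in WT hearts (log2 fold change 2.53 ± 0.166 (SE), adjusted *P*=0.000869 by edgeR), and it was called in all 6 fits without 1 heart. *Cd36*, the fatty acid translocase, measured 24.2, 31.7 and 23.8 against 14.6, 14.0 and 12.9 CPM (0.94 ± 0.140 (SE), adjusted *P*=0.0159 by edgeR). *Lpl* and *Acsl1* of the same list, a lipase that frees fatty acids for uptake and an enzyme that activates them, were named after their values were seen and had log2 fold changes of -0.46 ± 0.146 (SE, adjusted *P*=0.113 by edgeR) and -0.54 ± 0.171 (SE, adjusted *P*=0.109 by edgeR, called lower by DESeq2 with adjusted *P*=0.0389), with every *Smyd1-KO* heart below every WT heart. *Slc27a1*, a fatty acid transporter gene of the list likewise named after its values were seen, went the other way. It stood at 0.39 ± 0.117 (SE, adjusted *P*=0.0972 by edgeR), with every *Smyd1-KO* heart above every WT heart. Without overlap between genotypes were 5 of the 30 genes as higher and 4 as lower, beside 15.9% and 15.5% of all genes. *Txnip*, which limits glucose uptake, fell (-0.98 ± 0.190 (SE), adjusted *P*=0.0338 by edgeR), as did *Ucp2*, a carrier of the mitochondrial inner membrane (-0.53 ± 0.118 (SE), adjusted *P*=0.0484 by edgeR), and *Ucp2* was not called in any fit without 1 heart. *Cd36* kept its call in 3 of these 6 fits (without *Smyd1-KO* heart 2, WT heart 2 or WT heart 3 it missed), *Txnip* in 2 and *Lpin1* in 1, with adjusted *P* by edgeR of at most 0.0936, 0.142 and 0.144 and no change of direction.

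The fatty acid oxidation genes of the same list did not pass. The 3 most abundant targets per length, *Acaa2* and *Hadha* of mitochondrial β-oxidation and the fatty acid binding protein gene *Fabp3*, had log2 fold changes of -0.075, -0.085 and 0.30. *Angptl4* and *Pdk4*, which answer to most PPAR ligands and were named after their values were seen, stood at 0.036 ± 0.171 (SE) and 0.13 ± 0.326. *Plin2* and *Acot2* of the list, named in the same way, stood at 0.21 ± 0.0891 (SE) and 0.42 ± 0.164. In both, every *Smyd1-KO* heart was above every WT heart, and neither was called (adjusted *P*=0.206 and 0.164 by edgeR). The median over the 30 genes was 0.14, with 19 positive and 11 negative.

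Targets of the ERRs and of NRF1 gave 0 calls in edgeR, where 4.28% of all genes were called, and 0 in DESeq2, where 9.29% were called. Of 28 tested ERR targets, 0 had an unadjusted *P* under 0.05, beside 25.1% of all genes. Their log2 fold changes ran from -0.39 to 0.90, with a median of 0.0088. The most abundant, the ATP synthase genes *Atp5b* and *Atp5a1* and the ADP/ATP carrier gene *Slc25a4*, stood at 0.0023 ± 0.144 (SE), -0.019 ± 0.144 and 0.0045 ± 0.229. *Slc25a4* measured 607, 929 and 962 CPM in *Smyd1-KO* hearts 1 to 3, lowest in the heart with few cardiomyocyte markers. With such a spread between hearts, the lack of calls does not show that the ERR targets were unchanged. Of 19 tested NRF1 targets, 1 was higher and 4 were lower at an unadjusted *P* under 0.05, beside 13.1% and 11.9% of all genes, and the median was -0.0088. Without overlap between genotypes were 2 of them as higher and 5 as lower, beside 15.9% and 15.5% of all genes. *Cox4i1* and *Cox5b*, subunits of cytochrome oxidase, stood at 0.16 and 0.050, and cytochrome c, *Cycs*, at -0.46 ± 0.181 (SE, adjusted *P*=0.167 by edgeR).

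**Figure D5:**
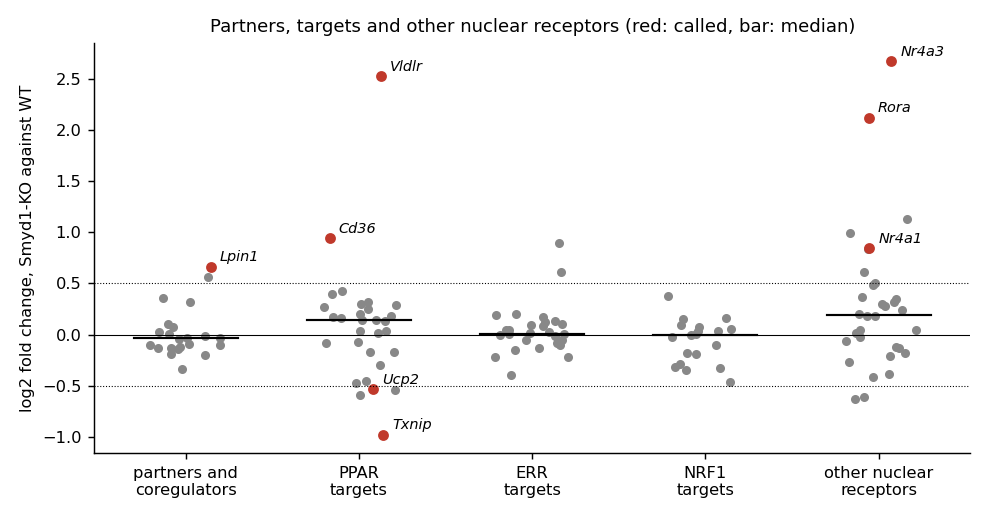
Log2 fold change between *Smyd1-KO* and WT hearts of every tested gene in 5 lists (points, called genes in red and named), with bars at the medians and dotted lines at the limit on the fold. The ERR and NRF1 targets have no called gene, and *Vldlr* is the highest of the PPAR targets.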

How the data were processed

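The data are RNA-seq of 6 E9.5 mouse hearts. Hearts were grouped by the genotype in the sample labels, 3 Smyd1-KO and 3 WT. The authors selected poly A RNA, sequenced paired-end libraries, used STAR for alignment to mm10, and deposited whole-number raw counts per gene. The counting tool, annotation release and strand setting are not given in the sources used here. A further deposited table of the same counts, normalized by the authors with DESeq2, was not used. Total counts per heart were 48627825 to 64217529, and the methods name no molecular identifiers. Nothing states that embryos came from separate litters, so P-values measure the spread between these hearts.

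Counts were tested in R 4.3.3 with edgeR 4.0.16 (filterByExpr, TMM, quasi-likelihood fit and test) across 19372 genes with Benjamini-Hochberg adjustment, and genes were called at 0.05 after adjustment with a log2 fold change of 0.5 or more in either direction. The biological coefficient of variation was 22.5%. SE is the log2 fold change divided by the square root of the F statistic. A prior count of 2 was used on the log2 CPM scale. Exon lengths came from GENCODE on GRCm38. Ratios were tested in scipy 1.17.1 by exact permutation over hearts. The steps were tested on simulated data.

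The 10 genes and all lists were chosen with earlier results of these data known. Named genes are the 10 regulators, Smyd1, up to 6 called genes and the 3 most abundant per length of each list, and the 3 genes most like a called regulator. *Rxrb*, *Angptl4*, *Pdk4*, *Lpl*, *Acsl1*, *Slc27a1*, *Plin2* and *Acot2* are exceptions and were named after their values were seen. Alternatives were DESeq2 1.42.0, RLE and upper-quartile factors, no filter, at least 10 counts in every heart, no limit on the fold, glmTreat at 0.5, the replicate number as a block, leaving out each heart, and other lengths and scalings. The scaling by cardiomyocyte markers was added after the data were seen. The Chd4 RNA-seq, ATAC-seq and proteomic data were not analysed here.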

Additional observations from a re-analysis of the deposited data

How the results depend on the processing

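The count of regulators called higher, 1 in edgeR with TMM, was 2 in DESeq2, 0 with glmTreat, 0 with the replicate block and 0 to 2 when each heart was left out, and 0 were called lower throughout. Over all genes the counts higher and lower were 1126 and 623 in DESeq2, 136 and 18 with glmTreat, 56 and 3 with the replicate block, and 89 to 809 and 8 to 447 without 1 heart. In the 5 lists, the counts higher were 3 with glmTreat, 3 with the replicate block and 3 to 7 without 1 heart. The counts lower there were 4 in DESeq2, 1 with RLE factors, 0 with glmTreat, 0 with the block and 0 to 2 without 1 heart. The highest counts without 1 heart came from leaving out *Smyd1-KO* heart 1. glmTreat asks for more than the fold limit, and for the other settings the cause was not tested. *Smyd1* passed in DESeq2 (log2 fold change -1.0).

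The labels do not say that hearts of the same replicate number belong together. Deviations from the genotype means correlated at -0.216, -0.0538 and -0.182 between hearts of the same number, which come from different embryos. Between hearts of different numbers they correlated at -0.156 to 0.286. Shared litters or handling cannot be read from these values, because the hearts also differ in marker content. With the block *Ppard* had an adjusted *P* of 0.145 by edgeR.

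Without 1 heart, log2 fold changes crossed 0 for *Esrra* (-0.27 to 0.055), *Esrrg* (-0.28 to 0.073), *Ppargc1a* (-0.41 to 0.057), *Kat2a* (-0.29 to 0.013), *Yy1* (-0.045 to 0.051), *Acaa2* (-0.34 to 0.15), *Hadha* (-0.16 to 0.041), *Atp5b* (-0.079 to 0.13), *Atp5a1* (-0.12 to 0.097), *Slc25a4* (-0.15 to 0.21), *Cox5b* (-0.095 to 0.21), *Angptl4* (-0.036 to 0.12), *Pdk4* (-0.053 to 0.40) and *Nr2f1* (-0.39 to 0.10), none of which was called. The genotype difference in log2 ratio ran from -0.17 to 0.083 for *Ppard* to *Pparg* and from -0.0071 to 0.12 for *Esrra* to *Esrrg*. Per cardiomyocyte marker level, log2 differences turned to 0.10 for *Esrra*, 0.028 for *Esrrg* and 0.22 for *Nrf1*. With the longest transcript as length, shares of the summed WT level of the 10 genes were 25.8% for *Esrra*, 21.9% for *Nrf1*, 19.8% for *Rxra*, 11.3% for *Ppard*, 10.2% for *Esrrg*, 5.07% for *Ppargc1a*, 3.67% for *Ppargc1b*, 0.351% for *Pparg* and 0.171% for *Ppara*. With 21 to 65 reads per heart, *Ppara* and *Pparg* were measured with less precision than the other regulators.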

Other observations

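Nuclear receptors other than the PPARs, ERRs and RXRs were listed as well. Of 40 receptors, 32 passed the filter on low counts, of which 3 were upregulated and 0 downregulated by edgeR, beside 2.86% and 1.42% of all tested genes, with a median log2 fold change of 0.19. *Rora*, a receptor of circadian and lipid metabolism, measured 28.2, 33.2 and 32.9 CPM in *Smyd1-KO* hearts 1 to 3 and 7.42, 7.07 and 7.19 CPM in WT hearts, a log2 fold change of 2.12 ± 0.111 (SE, adjusted *P*=0.000419 by edgeR). *Nr4a3* and *Nr4a1*, immediate early receptors, had log2 fold changes of 2.67 ± 0.273 (SE, adjusted *P*=0.00508 by edgeR) and 0.84 ± 0.139 (SE, adjusted *P*=0.0208 by edgeR). *Rora* and *Nr4a3* were called in all 6 fits without 1 heart, and *Nr4a1* in 2 of them. The most abundant receptors per length, *Nr2f6*, *Nr2f1* and *Nr1h2*, stood at -0.13, -0.064 and 0.30 and were not called.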
